A study of Mus musculus with 12 samples.

Results

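Transcripts of 34 genes of cholesterol and fatty acid synthesis, the genes known as targets or regulators of the sterol regulatory element binding proteins (SREBPs), were followed in RNA sequencing of C57BL/6 mouse mammary epithelial cells. The genes were matched by symbol, and the list was chosen with earlier results of these data known. All 34 had exactly 1 row among the 28427 rows of the count table, and all 34 were among the 13951 genes that passed a filter on low counts. They comprise 7 enzymes from acetyl-CoA to squalene, 10 enzymes from squalene to cholesterol, 5 regulators, 2 sterol transfer proteins and 10 enzymes that make and desaturate fatty acids. The 12 libraries form 4 groups of 3: 96 h spheroids, 96 h monolayers, 48 h spheroids and 48 h monolayers. Spheroids were cast in growth factor-reduced Matrigel, a basement membrane extract, and monolayers were plated on dishes coated with collagen, so the geometry of the culture and the matrix changed together and cannot be told apart. Both formats received a supplemented mammary epithelial medium holding the hormones prolactin at 1 µg/mL and progesterone at 1 µM. The gels had fresh medium after 48 h, and the labels do not state a medium change for monolayers. The series calls the libraries biological replicates without saying whether they came from different animals, so p-values measure the spread between these libraries. In bulk RNA such as this, fewer cells of a type and less RNA per cell cannot be told apart.

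SREBPs are made as precursors in the membrane of the endoplasmic reticulum, where they are bound by Scap. When sterols are scarce, Scap escorts them to the Golgi, where the site-1 and site-2 proteases release a fragment that enters the nucleus and activates transcription. When sterols are plentiful, Insig proteins hold Scap back. The product of Srebf2 is known chiefly for the cholesterol pathway and that of Srebf1 for fatty acid synthesis, a major activity of the lactating mammary epithelium. Cleavage was not measured here, and all values are transcript levels.

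Most members were lower in spheroids than in monolayers at 48 h and higher at 96 h. At 96 h, 24 of 34 members were higher in spheroids and 6 were lower, against 37.3% and 36.5% of all genes tested, with a median log2 change of 0.84 for the members and -0.0015 for all genes. At 48 h, 6 members were higher in spheroids and 23 were lower, against 31.6% and 26.4% of all genes tested, with medians of -0.62 for the members and 0.050 for all genes. Of the 34, 15 fell at 48 h and rose at 96 h, 5 rose at both times, 4 fell at both times and 10 showed other combinations. The test of the difference between the format effects (the log2 change at 96 h less the log2 change at 48 h) was positive for 29 members and negative for 2, against 26.9% and 26.4% of all genes, and its median was 1.73 for the members and -0.018 for all genes.

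Seen along time, the members moved down in monolayers and up in spheroids. From 48 h to 96 h in monolayers 30 of 34 fell and 2 rose, against 31.3% and 30.1% of all genes tested falling and rising, with medians of -0.88 for the members and 0.012 for all genes. In spheroids 23 rose and 4 fell, against 19.3% and 20.5% of all genes, with medians of 0.31 for the members and 0.012 for all genes. Both opposite directions held for 23 members, which fell with time in monolayers and rose with time in spheroids. Of the 34 members, 21 had their highest group mean in 48 h monolayers and 24 had their lowest in 96 h monolayers. The 5 comparisons draw on the same 12 libraries and are therefore not independent. Calls come from edgeR's quasi-likelihood F test, with p-values adjusted over all genes tested by the Benjamini-Hochberg method and a threshold of 0.05. With any 1 library left out, between 17 and 23 members rose with time in spheroids.

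The balance of calls over all genes depended on the scaling, and that of the members less. Of all genes called at 48 h, 54.5% were higher in spheroids, and 65.1% were when libraries were scaled by total count alone. That scaling moved the median of all genes to 0.16 at 48 h, to 0.18 for time in monolayers and to -0.21 for the difference between the format effects. The share of calls that were higher was 66.2% under it for time in monolayers, against 49% as scaled here, and 34.2% for the difference, against 50.5%. With limma on the authors' log2 FPKM values these 3 shares were 65.2%, 65.2% and 35.6%. Member counts under total count scaling were 7 higher and 23 lower at 48 h, 3 and 27 for time in monolayers, and 28 and 2 for the difference. For time in spheroids 23 members rose as scaled here and 21 under total count scaling or DESeq2-type size factors. With upper-quartile scaling or limma on log2 FPKM 19 rose, and 4 fell in each of these settings.

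**Figure D1:**
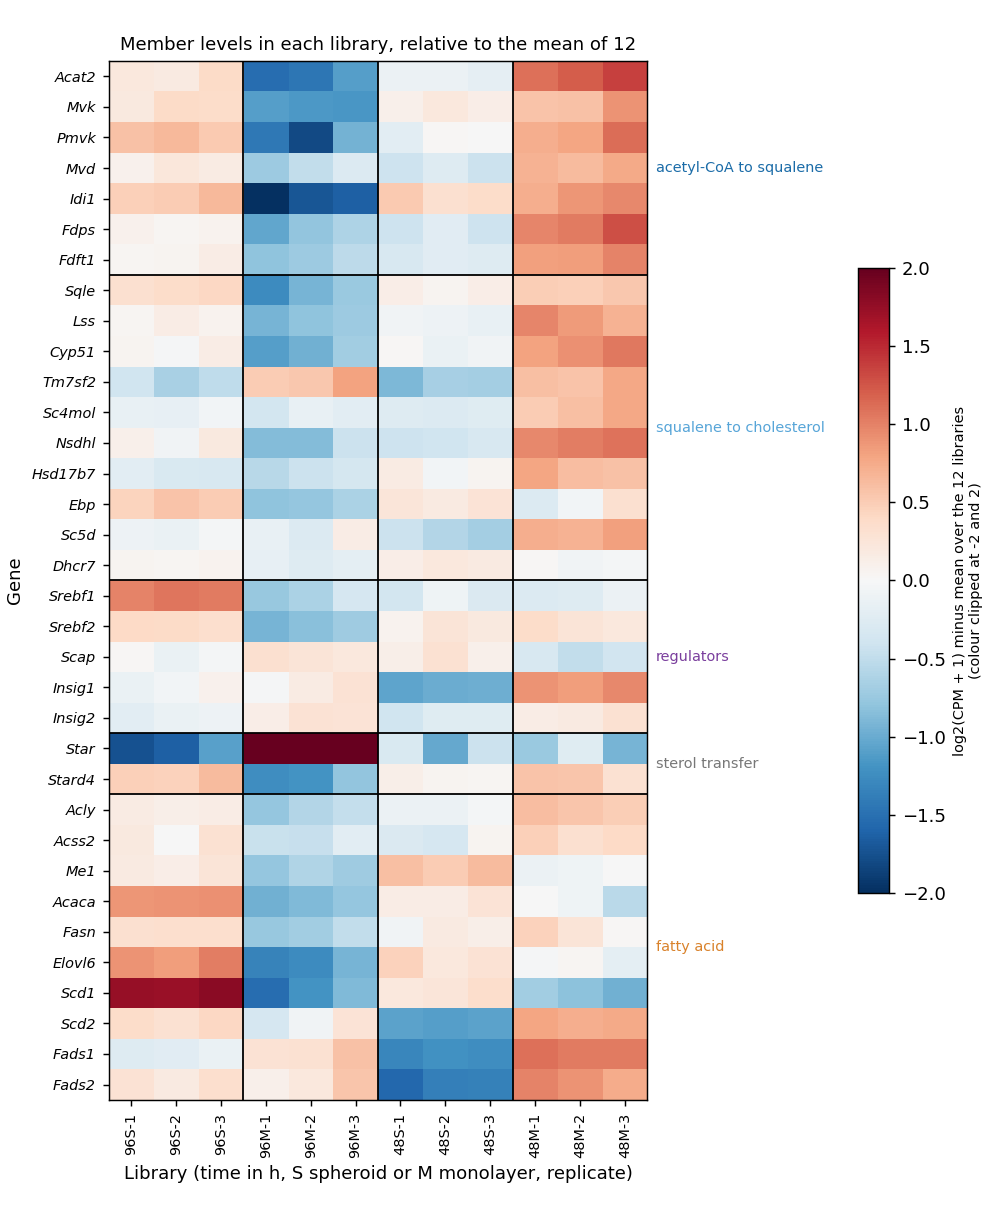
Level of each of the 34 members (rows, grouped by role) in each of the 12 libraries (columns), as log2 of CPM (counts scaled to library size) plus 1, minus the mean of that gene over the 12 libraries. Red stands for a level above the gene's mean and blue for a level below it. In the upper rows the 48 h monolayers are the reddest block and the 96 h monolayers the bluest, with both spheroid groups between them, and Star runs the other way.

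Library totals lay between 7674105 and 13554497 counts. The first principal component separated all spheroid libraries from all monolayer libraries, and no pair of replicates agreed within sampling noise. Markers of cycling cells and of cell types, the epithelial cells themselves included, also differed between the groups. The summed level of 8 cycling markers was 1407 to 1518 CPM in 96 h spheroids, 105 to 137 CPM in 96 h monolayers, 1144 to 1181 CPM in 48 h spheroids and 658 to 679 CPM in 48 h monolayers, and all 8 were higher in spheroids at both times. For 7 epithelial markers the sums were 6693 to 6998, 4246 to 4566, 7214 to 7698 and 9775 to 11260 CPM in the same order of groups, with 6 of 7 higher in spheroids at 96 h and 3 higher and 4 lower at 48 h. For 7 fibroblast markers they were 675 to 732, 1741 to 2386, 1980 to 2241 and 7695 to 8454 CPM, with 1 of 7 higher and 5 lower in spheroids at 96 h and 2 higher and 4 lower at 48 h. For 5 immune markers, most of it Cd14, they were 460.0 to 544, 89.96 to 108, 271 to 299 and 62.7 to 70.8 CPM, and Ptprc, which marks all leukocytes, had at most 4 counts in any library. Of the 4 immune markers tested, 1 was higher and 2 lower in spheroids at 96 h, and 2 were higher and none lower at 48 h. For 4 endothelial markers they were 5.50 to 6.50, 53.9 to 56.2, 21.5 to 28.1 and 31.1 to 43.8 CPM, with all 4 lower in spheroids at 96 h and 2 lower at 48 h. Of all genes tested, 37.3% were higher and 36.5% lower in spheroids at 96 h, and 31.6% and 26.4% at 48 h. The part of these markers in the results was not tested.

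The 7 enzymes that build squalene from acetyl-CoA moved as a block. All 7 were higher in spheroids at 96 h (37.3% of all genes tested), with log2 changes from 0.67 to 2.36 and a median of 1.54. All 7 were lower in spheroids at 48 h (26.4% of all genes tested), from -0.45 to -1.46 with a median of -1.09. In monolayers all 7 fell with time (31.3% of all genes tested), by a median of 1.93 on the log2 scale. In spheroids 5 rose (19.3% of all genes tested), with a median log2 change of 0.40 over the 7. The signed log2 change in spheroids was higher at 96 h than at 48 h for all 7 (26.9% of all genes tested), by a median of 2.35.

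Idi1, the isomerase that interconverts the C5 building blocks isopentenyl and dimethylallyl diphosphate, had 317, 326 and 357 CPM in 96 h spheroids, 53.8, 68.6 and 72.7 CPM in 96 h monolayers, 329.6, 286 and 293 CPM in 48 h spheroids and 380.0, 419 and 445 CPM in 48 h monolayers. The 96 h monolayers stood far below the 3 other groups, with no library above 72.7 CPM where none elsewhere was below 286 CPM. Its log2 change in spheroids was 2.36 (SE 0.101, adjusted p = 2.57e-13) at 96 h, a 5.15-fold higher level, and -0.45 (SE 0.0929, adjusted p = 0.000394) at 48 h. Over time Idi1 fell by 2.68 on the log2 scale in monolayers, while in spheroids its change of 0.14 did not pass the test (adjusted p = 0.253).

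Pmvk, the kinase that adds the second phosphate to mevalonate, had 30.5, 32.01 and 29.2 CPM in 96 h spheroids, 6.80, 5.01 and 9.97 CPM in 96 h monolayers, 17.3, 20.4 and 19.9 CPM in 48 h spheroids and 33.9, 35.6 and 44.9 CPM in 48 h monolayers. Groups of the same time did not overlap, and the ranking of the formats was opposite at the 2 times. The log2 change in spheroids was 2.04 (SE 0.16, adjusted p = 1.6e-09) at 96 h and -0.99 (SE 0.14, adjusted p = 6.96e-06) at 48 h, and the difference between them was 3.03 (SE 0.213, adjusted p = 1.38e-09).

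Acat2, the cytosolic thiolase that joins acetyl-CoA units, had 92.7, 91.6 and 105 CPM in 96 h spheroids, 27.4, 28.9 and 37.04 CPM in 96 h monolayers, 74.1, 74.4 and 71.02 CPM in 48 h spheroids and 173, 188 and 209 CPM in 48 h monolayers. No groups overlapped: 48 h monolayers were highest, then 96 h spheroids, then 48 h spheroids, then 96 h monolayers. The log2 change in spheroids was 1.63 (SE 0.1, adjusted p = 5.27e-11) at 96 h and -1.38 (SE 0.0926, adjusted p = 3.14e-10) at 48 h, with a difference of 3.01 (SE 0.137, adjusted p = 3.62e-12). In monolayers Acat2 fell 6.10-fold with time.

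Of the other enzymes before squalene, mevalonate kinase (Mvk) changed by 1.54 in spheroids at 96 h and by -0.56 at 48 h on the log2 scale, and mevalonate diphosphate decarboxylase (Mvd) by 0.67 and -1.09. Farnesyl diphosphate synthase (Fdps) changed by 0.88 and -1.46, and squalene synthase (Fdft1) by 0.77 and -1.16. Part of the exons of Fdps overlaps Gm43738 on the same strand and part of those of Fdft1 overlaps Ctsb on the opposite strand, and no source used here gives the strand setting of the counting, so reads in the shared stretches cannot be told apart. Per gene length, Fdps had the highest mean of the 7 in all groups but the 48 h spheroids, where Idi1 was level with it at 106 ± 8.25. Fdps had 139 ± 2.70 FPKM (fragments per kilobase of transcript, scaled to library size; SD, n = 3) in 96 h spheroids, 79.8 ± 10.9 in 96 h monolayers, 105 ± 7.73 in 48 h spheroids and 269 ± 27.5 in 48 h monolayers.

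RefSeq promoter windows, from 250 bases before to 50 bases after the gene start on GRCm38.p6, were at hand for 26 of the 34 members. Those of 6 are shown, 4 of sterol enzymes that were higher at 96 h and lower at 48 h (Mvk, Nsdhl, Idi1 and Acat2), 1 of a fatty acid enzyme (Fasn) and 1 of a regulator (Insig1). The capitals mark CCAAT boxes, the letters CCAAT or their reverse complement ATTGG, which the factor NF-Y is known to bind beside SREBP sites. Mvk (chr5:114444019-114444318, plus strand) held 5 boxes, Nsdhl (chrX:72918271-72918570, plus strand) 4, Fasn (chr11:120824498-120824797, minus strand) 3 of which 2 overlap, Idi1 (chr13:8885356-8885655, plus strand) 2, Insig1 (chr5:28071162-28071461, plus strand) 1, and Acat2 (chr17:12960676-12960975, minus strand) none. The windows read 5′ to 3′ along the gene as follows.
Mvk: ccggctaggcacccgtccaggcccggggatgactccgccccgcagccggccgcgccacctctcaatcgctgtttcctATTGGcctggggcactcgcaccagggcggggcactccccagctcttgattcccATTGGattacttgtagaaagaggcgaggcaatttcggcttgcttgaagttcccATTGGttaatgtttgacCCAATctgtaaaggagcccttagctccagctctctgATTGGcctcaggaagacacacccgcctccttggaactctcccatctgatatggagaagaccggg
Nsdhl: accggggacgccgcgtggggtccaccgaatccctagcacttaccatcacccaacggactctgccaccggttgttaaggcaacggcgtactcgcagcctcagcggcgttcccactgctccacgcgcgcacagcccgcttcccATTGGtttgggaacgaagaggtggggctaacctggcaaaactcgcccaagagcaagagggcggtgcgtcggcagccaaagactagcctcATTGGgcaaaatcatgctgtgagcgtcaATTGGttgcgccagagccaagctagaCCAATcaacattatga
Fasn: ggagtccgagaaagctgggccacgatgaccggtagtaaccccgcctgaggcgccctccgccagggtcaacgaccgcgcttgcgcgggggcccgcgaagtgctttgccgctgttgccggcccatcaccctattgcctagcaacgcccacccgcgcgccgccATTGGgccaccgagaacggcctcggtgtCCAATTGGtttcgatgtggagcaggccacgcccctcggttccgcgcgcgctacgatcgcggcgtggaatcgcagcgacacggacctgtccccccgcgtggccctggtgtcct
Idi1: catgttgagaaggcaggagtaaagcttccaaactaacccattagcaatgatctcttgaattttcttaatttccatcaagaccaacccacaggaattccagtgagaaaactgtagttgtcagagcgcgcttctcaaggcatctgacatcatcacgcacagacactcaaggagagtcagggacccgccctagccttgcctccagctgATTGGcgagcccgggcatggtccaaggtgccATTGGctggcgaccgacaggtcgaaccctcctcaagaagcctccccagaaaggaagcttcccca
Insig1: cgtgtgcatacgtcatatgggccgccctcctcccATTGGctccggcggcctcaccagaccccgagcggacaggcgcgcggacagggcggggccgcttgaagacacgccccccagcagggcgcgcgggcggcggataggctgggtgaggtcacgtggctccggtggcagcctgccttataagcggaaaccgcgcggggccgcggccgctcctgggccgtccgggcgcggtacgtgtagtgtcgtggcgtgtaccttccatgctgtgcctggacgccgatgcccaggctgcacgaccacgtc
Acat2: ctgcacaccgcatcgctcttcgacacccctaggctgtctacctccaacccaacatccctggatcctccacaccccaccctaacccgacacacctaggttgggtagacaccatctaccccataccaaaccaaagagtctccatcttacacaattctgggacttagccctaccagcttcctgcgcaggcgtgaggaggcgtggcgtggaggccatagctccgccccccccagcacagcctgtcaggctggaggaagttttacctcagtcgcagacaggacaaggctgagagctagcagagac

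Counted on both strands, a CCAAT box was in the window of 21 of 26 members (80.8%), against 41.1% of 27025 genes with such windows. It was in all 9 of 9 enzymes from squalene to cholesterol, 4 of 5 enzymes before squalene, 4 of 5 regulators and 4 of 7 fatty acid enzymes. The GC box GGGCGG was in 22 of 26 (84.6%), against 38.2% of genes. For both boxes the 27025 genes were not limited to those that passed the filter on low counts, as all members did. An excess over genes that passed the filter was not tested. The sterol regulatory element in the form TCACNCCAC was in none of the 26 windows. It was in 1.44% of genes, too few for its absence from 26 windows to set the members apart. Other forms of the element were not searched. Acat2 had no CCAAT box in its window and moved like its neighbours in the pathway, which says only that these letters are not in this window.

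The 10 enzymes that turn squalene into cholesterol were less uniform. At 96 h, 6 of 10 were higher in spheroids and 1 was lower (37.3% and 36.5% of all genes tested). The log2 changes ran from -1.23 to 1.34 with a median of 0.53. At 48 h, 8 were lower and 1 was higher (26.4% and 31.6% of all genes tested), with a median of -0.93. Over time 9 of 10 fell in monolayers (31.3% of all genes tested), with a median of -1.0. In spheroids 5 rose and 1 fell (19.3% and 20.5% of all genes tested), with a median of 0.23. Of those rises, that of Lss (0.199, adjusted p = 0.0486) was lost in 16 of 22 alternatives, the replicate block, DESeq2 and all other scalings among them, that of Ebp (0.27, adjusted p = 0.0443) in 13, and that of Sqle (0.27) without 48 h spheroid 2 or 96 h spheroid 3. The signed log2 change in spheroids was higher at 96 h than at 48 h for 8 of 10 (26.9% of all genes tested), with a median difference of 1.17.

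Sqle, squalene epoxidase, a rate-setting enzyme of the pathway, had 189, 194 and 201 CPM in 96 h spheroids, 62.6, 78.7 and 90.1 CPM in 96 h monolayers, 165, 156 and 165 CPM in 48 h spheroids and 213, 210.3 and 218 CPM in 48 h monolayers. Its 96 h monolayers lay below every other library, and the 3 other groups did not overlap with each other either. The log2 change in spheroids was 1.34 (SE 0.092, adjusted p = 2.5e-10) at 96 h and -0.40 (SE 0.0886, adjusted p = 0.000733) at 48 h, and the difference was 1.74 (SE 0.128, adjusted p = 2.43e-09).

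Nsdhl, a dehydrogenase of C4 demethylation, had 60.2, 53.3 and 64.1 CPM in 96 h spheroids, 30.5, 30.2 and 41.5 CPM in 96 h monolayers, 42.02, 42.4 and 44.6 CPM in 48 h spheroids and 110.3, 115 and 120.1 CPM in 48 h monolayers. All 48 h monolayers lay above all other libraries, and the 96 h monolayers lay below the 48 h spheroids. Its log2 change in spheroids was 0.79 (SE 0.101, adjusted p = 1.21e-06) at 96 h and -1.42 (SE 0.0979, adjusted p = 4.51e-10) at 48 h, with a difference of 2.21 (SE 0.141, adjusted p = 3.58e-10).

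Cyp51, the lanosterol demethylase, had 256, 241 and 273 CPM in 96 h spheroids, 114, 126 and 152 CPM in 96 h monolayers, 250.2, 225 and 233 CPM in 48 h spheroids and 432, 466 and 511 CPM in 48 h monolayers. The spheroid groups overlapped with each other, and both lay between the monolayer groups. Spheroids differed from monolayers by 0.98 (SE 0.0933, adjusted p = 2.56e-08) at 96 h and -0.99 (SE 0.0916, adjusted p = 2.84e-08) at 48 h on the log2 scale. Some of its exon sequence overlaps Akap9 on the opposite strand.

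Lss, the cyclase that forms lanosterol, had 59.3, 64.1 and 61.1 CPM in 96 h spheroids, 30.00, 32.8 and 34.4 CPM in 96 h monolayers, 54.9, 53.7 and 51.98 CPM in 48 h spheroids and 115, 105 and 94.6 CPM in 48 h monolayers. Spheroids were above monolayers at 96 h and below them at 48 h without overlap. The log2 changes were 0.93 (SE 0.0804, adjusted p = 6.83e-09) at 96 h and -0.97 (SE 0.0758, adjusted p = 2.78e-09) at 48 h.

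Tm7sf2, a C14 sterol reductase, did not take part in the reversal; it is described here after its values were seen. It had 9.33, 7.65 and 8.54 CPM in 96 h spheroids, 18.2, 18.8 and 22.7 CPM in 96 h monolayers, 6.25, 7.53 and 7.46 CPM in 48 h spheroids and 19.6, 19.2 and 22.3 CPM in 48 h monolayers. Both spheroid groups lay below both monolayer groups. Its log2 change in spheroids was -1.23 (SE 0.12, adjusted p = 3.44e-08) at 96 h and -1.53 (SE 0.129, adjusted p = 7.91e-09) at 48 h, and the difference of 0.31 did not pass the test (adjusted p = 0.159). Lbr, which carries the same reductase activity and is not a member, changed the other way, by 1.38 at 96 h and 0.29 at 48 h, and both values passed the test.

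Of the remaining later enzymes, Ebp, the sterol isomerase, was 2.42-fold higher in spheroids at 96 h, and its log2 change of 0.22 at 48 h did not pass (adjusted p = 0.085), but did in 6 alternatives, among them total count scaling and leaving out 48 h monolayer 3 (0.40, adjusted p = 0.000247). Sc5d, Sc4mol and Hsd17b7, which act in desaturation and C4 demethylation, fell in spheroids at 48 h by 1.31, 0.89 and 0.61 on the log2 scale, and at 96 h their changes of -0.014, 0.12 and 0.17 did not pass. The change of Hsd17b7 at 96 h did pass in 7 alternatives, with values up to 0.23. Dhcr7, which catalyses a last reduction step, was 1.199-fold higher in spheroids at 96 h and 1.16-fold higher at 48 h, the smallest called format effects among the later enzymes. The call at 48 h was lost when 2 groups only were fitted (0.18, adjusted p = 0.0547), and its difference between times of 0.048 did not pass (adjusted p = 0.649). Its fall by 0.17 with time in monolayers (adjusted p = 0.0168) was lost in 6 alternatives, among them upper-quartile scaling, limma on log2 FPKM and leaving out 96 h monolayer 2, and was 0.00021 with the sign turned under total count scaling.

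**Figure D2:**
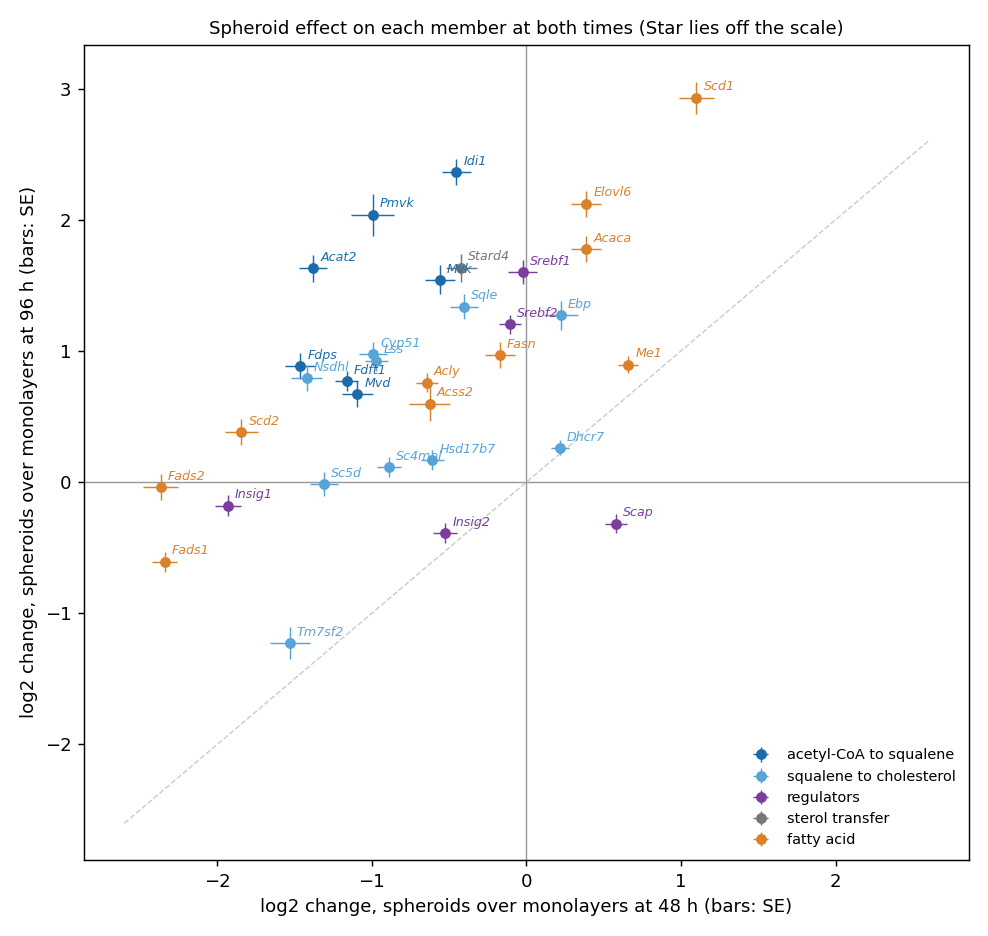
Log2 change in spheroids over monolayers at 48 h (horizontal axis) and 96 h (vertical axis) for 33 members, coloured by role, with bars of 1 standard error (SE); Star, at 0.091 and -5.39, is off the scale and the dashed line marks equal change. Nearly all points lie above the line, most sterol enzymes stand in the upper left, and Tm7sf2, Me1, Insig2 and Dhcr7 lie near the line.

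The 5 regulators did not share 1 pattern. At 96 h, 2 were higher and 3 were lower in spheroids (37.3% and 36.5% of all genes tested). At 48 h, 1 was higher and 2 were lower (31.6% and 26.4% of all genes tested). Over time 3 fell and 1 rose in monolayers (31.3% and 30.1% of all genes tested), and 3 rose and 1 fell in spheroids (19.3% and 20.5%). In spheroids the rise of Srebf2 (0.20, adjusted p = 0.0312) was lost with upper-quartile scaling and without 48 h spheroid 1 or 3 or any 96 h spheroid, and the fall of Scap (-0.22, adjusted p = 0.0183) without 48 h spheroid 2 or 96 h spheroid 2 or 3.

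Srebf1 had 312, 328 and 324 CPM in 96 h spheroids, 92.4, 101 and 124 CPM in 96 h monolayers, 121, 148 and 128 CPM in 48 h spheroids and 129, 130.4 and 143 CPM in 48 h monolayers. The 96 h spheroids stood more than 2-fold above every other library, and the formats overlapped at 48 h. Its log2 change in spheroids was 1.60 (SE 0.094, adjusted p = 2.52e-11) at 96 h, while the change of -0.023 at 48 h did not pass the test (adjusted p = 0.848). With time Srebf1 rose by 1.28 in spheroids and fell by 0.35 in monolayers on the log2 scale, and the fall was lost under total count scaling (-0.17, adjusted p = 0.103) and with limma on log2 FPKM (-0.18, adjusted p = 0.107). The table does not separate its transcript variants, and a stretch of its exons overlaps Rai1 on the opposite strand.

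Srebf2 had 307, 307 and 296 CPM in 96 h spheroids, 122, 131 and 143 CPM in 96 h monolayers, 247, 279 and 267 CPM in 48 h spheroids and 303, 279 and 270.1 CPM in 48 h monolayers. The 96 h monolayers were low and the 3 other groups lay close together. Spheroids differed from monolayers by a log2 change of 1.202 (SE 0.0728, adjusted p = 4.07e-11) at 96 h, and the change of -0.10 at 48 h did not pass (adjusted p = 0.219). In monolayers Srebf2 fell by 1.11 with time.

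Insig1, which holds Scap back when sterols are plentiful and is itself an SREBP target, had 119, 126 and 138 CPM in 96 h spheroids, 128, 147 and 159 CPM in 96 h monolayers, 61.9, 64.7 and 65.5 CPM in 48 h spheroids and 243, 234 and 256 CPM in 48 h monolayers. The 48 h spheroids were lowest and the 48 h monolayers highest, and the formats overlapped at 96 h. On the log2 scale the spheroid effect was -1.93 (SE 0.0826, adjusted p = 4.92e-13) at 48 h, a 3.81-fold lower level. At 96 h it was -0.18 (SE 0.0784, adjusted p = 0.0471), a call that was lost in 9 of the alternatives, 8 of which left out 1 library: 48 h monolayer 1, any of the 3 48 h spheroids, 96 h monolayer 2 or 3, or 96 h spheroid 1 or 2 (log2 changes from -0.17 to -0.09). Insig1 rose by 1.00 with time in spheroids and fell by 0.76 in monolayers.

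Scap, the escort protein, turned the other way: it was 1.24-fold lower in spheroids at 96 h and 1.49-fold higher at 48 h, and the difference of -0.90 passed the test (adjusted p = 6.72e-07). Insig2 was lower in spheroids at both times, by 0.39 at 96 h and 0.52 at 48 h on the log2 scale, and its difference of 0.14 between the times did not pass. Per length, Srebf1 and Srebf2 stood at 73.6 ± 1.66 and 75.3 ± 2.87 FPKM in 96 h spheroids and at 28.9 ± 1.26 and 64.6 ± 5.08 FPKM in 48 h monolayers (SD, n = 3 each), so they were within their spread of each other only in the 96 h spheroids of these 2 groups.

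**Figure D3:**
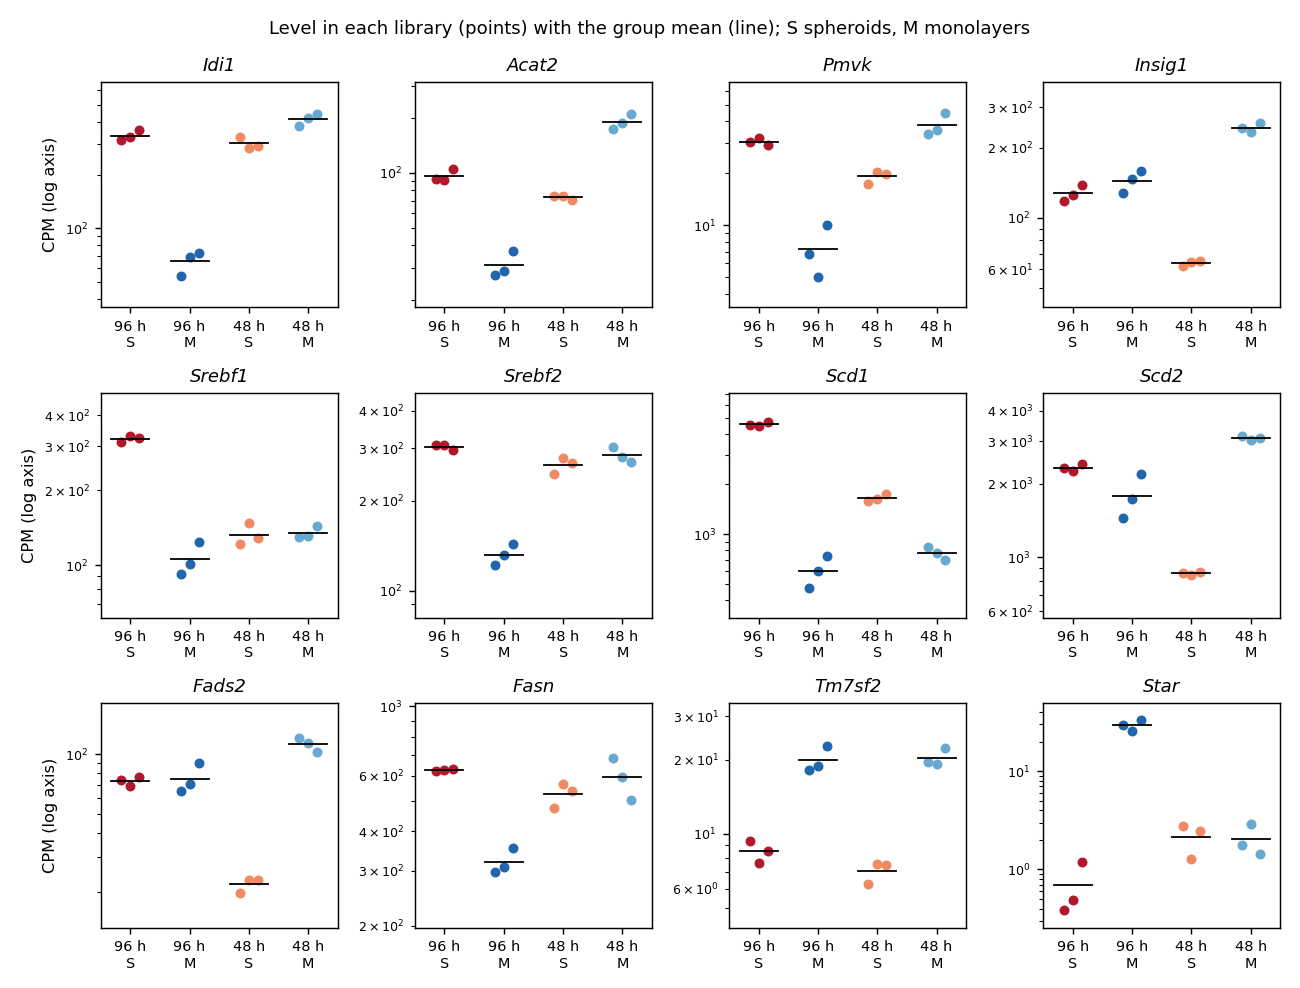
CPM on a log axis for 12 members, with the 3 libraries of each group as points and the group mean as a line (S, spheroids; M, monolayers). Idi1, Acat2 and Pmvk are lowest in 96 h monolayers, Srebf1 and Scd1 are highest in 96 h spheroids, Insig1, Scd2 and Fads2 are lowest in 48 h spheroids, and Star is high in 96 h monolayers.

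The 2 sterol transfer proteins went opposite ways. Stard4, a cytosolic carrier of cholesterol and an SREBP target, had 51.9, 50.8 and 57.5 CPM in 96 h spheroids, 15.04, 15.5 and 20.8 CPM in 96 h monolayers, 40.2, 38.3 and 37.96 CPM in 48 h spheroids and 55.4, 54.9 and 45.99 CPM in 48 h monolayers. Its 96 h monolayers lay below all other libraries. The log2 change in spheroids was 1.64 (SE 0.108, adjusted p = 1.38e-10) at 96 h and -0.42 (SE 0.0998, adjusted p = 0.00137) at 48 h, and the call at 48 h was lost when limma was run on log2 FPKM (-0.20, adjusted p = 0.121).

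Star, which brings cholesterol into mitochondria in cells that make steroid hormones, had 0.382, 0.494 and 1.19 CPM in 96 h spheroids, 29.7, 25.8 and 33.2 CPM in 96 h monolayers, 2.74, 1.27 and 2.45 CPM in 48 h spheroids and 1.76, 2.90 and 1.43 CPM in 48 h monolayers. It was near the lower end of detection in all groups but the 96 h monolayers, where it had 206 to 376 counts, against 5 to 16 counts in 96 h spheroids. Set against monolayers, spheroids changed by -5.39 (SE 0.266, adjusted p = 2.01e-12) at 96 h, and the change of 0.091 at 48 h did not pass (adjusted p = 0.834). In monolayers Star rose by 3.84 on the log2 scale with time.

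The fatty acid branch split at 48 h and joined the sterol genes at 96 h. At 96 h, 8 of 10 were higher in spheroids and 1 was lower (37.3% and 36.5% of all genes tested), with a median log2 change of 0.83. At 48 h, 4 were higher and 5 were lower (31.6% and 26.4% of all genes tested), with a median of -0.40. All 10 fell with time in monolayers (31.3% of all genes tested), with a median of -0.73. The fall of Scd1 (-0.35, adjusted p = 0.0137) was lost under total count scaling, in both limma settings, with 2 groups only and without 96 h monolayer 1 (-0.341 to -0.182). In spheroids 9 rose and 1 fell (19.3% and 20.5% of all genes tested), with a median of 0.66. The rise of Fasn (0.25, adjusted p = 0.0487) was lost in 14 of 22 alternatives, the replicate block and all other scalings among them, and that of Acss2 (0.39) in 6. All 10 had a higher signed log2 change in spheroids at 96 h than at 48 h (26.9% of all genes tested), with a median difference of 1.57. Of these differences that of Me1, 0.24, was lost in 11 alternatives: upper-quartile and total count scaling, a stricter filter, both limma settings, and leaving out 48 h monolayer 2 or 3, 48 h spheroid 2, 96 h monolayer 1 or 3, or 96 h spheroid 3 (values from 0.043 to 0.25). The summed level of 8 adipocyte markers was 51.4 to 55.8 CPM in 96 h spheroids, 54.9 to 80.4 in 96 h monolayers, 288 to 319 in 48 h spheroids and 34.5 to 40.3 in 48 h monolayers. Most of it was Fabp4, while Adipoq had at most 8 counts in a library and Lep, Retn, Cfd and Cidec at most 4. Plin1, Fabp4 and Pparg were the 3 of 8 tested; 2 were higher and 1 lower in spheroids at 96 h, and all 3 were higher at 48 h. Their part in the branch was not tested.

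The enzymes that supply and build palmitate came first in this branch. Fasn, fatty acid synthase, had 621, 627 and 629 CPM in 96 h spheroids, 296, 308 and 354 CPM in 96 h monolayers, 476, 567 and 539 CPM in 48 h spheroids and 683, 595 and 504 CPM in 48 h monolayers. The 96 h monolayers were below all other libraries, and the formats overlapped at 48 h. The fitted log2 change for spheroids was 0.97 (SE 0.0973, adjusted p = 4.93e-08) at 96 h, and the change of -0.17 at 48 h did not pass (adjusted p = 0.134), although it did without 48 h monolayer 3 (-0.28, adjusted p = 0.00631).

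Acaca, acetyl-CoA carboxylase, the rate-setting step, had 386, 387 and 392 CPM in 96 h spheroids, 107, 112 and 121 CPM in 96 h monolayers, 230.1, 231 and 253 CPM in 48 h spheroids and 208, 196 and 143 CPM in 48 h monolayers. The 96 h spheroids were highest and the 96 h monolayers lowest, and no groups overlapped. Spheroids differed from monolayers by log2 changes of 1.78 (SE 0.102, adjusted p = 1.92e-11) at 96 h and 0.39 (SE 0.0998, adjusted p = 0.00278) at 48 h. Acly, which makes cytosolic acetyl-CoA from citrate, changed by 0.76 at 96 h and -0.64 at 48 h, and Acss2, which makes it from acetate, by 0.60 and -0.62. Me1, malic enzyme, a source of NADPH, was 1.86-fold higher in spheroids at 96 h and 1.58-fold higher at 48 h, and it fell with time in both formats. Elovl6, which extends palmitate, was 4.36-fold higher in spheroids at 96 h and 1.31-fold higher at 48 h.

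The desaturases held both extremes of the branch. Scd1, a stearoyl-CoA desaturase, had 4559.7, 4498 and 4752 CPM in 96 h spheroids, 472, 598 and 742 CPM in 96 h monolayers, 1580.1, 1618 and 1747 CPM in 48 h spheroids and 841, 768 and 697 CPM in 48 h monolayers. Spheroids were above monolayers at both times without overlap. On the log2 scale the spheroid effect was 2.93 (SE 0.122, adjusted p = 1.89e-13) at 96 h, the largest rise among the members, and 1.10 (SE 0.115, adjusted p = 1.63e-07) at 48 h.

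Scd2, its close paralogue, had 2336, 2256 and 2413 CPM in 96 h spheroids, 1447, 1734 and 2193 CPM in 96 h monolayers, 864, 849.5 and 868 CPM in 48 h spheroids and 3161, 3019 and 3086 CPM in 48 h monolayers. The 48 h spheroids were lowest and the 48 h monolayers highest. Set against monolayers, spheroids changed by 0.38 (SE 0.102, adjusted p = 0.00246) at 96 h and -1.84 (SE 0.105, adjusted p = 2.83e-11) at 48 h, with a difference of 2.23 (SE 0.145, adjusted p = 5.38e-10). Because the genes are alike in sequence, the estimated counts may have split reads between them.

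Per length, the balance of the paralogues differed more between culture formats than between times. Scd1 made up 69.0 ± 0.23% of Scd1 plus Scd2 FPKM in 96 h spheroids, 27.5 ± 0.56% in 96 h monolayers, 68.4 ± 1.04% in 48 h spheroids and 21.9 ± 1.44% in 48 h monolayers (SD, n = 3 each). The formats did not overlap. The share differed by 41.5 percentage points at 96 h and 46.4 at 48 h. An exact two-sided permutation test of the formats within each time gave p = 0.005, the smallest p that its 400 arrangements can give. With the formats apart at both times no other p was possible, so it adds nothing to the lack of overlap. The test was not among those planned. The sum of the 2 was 1356 ± 35.3 FPKM in 96 h spheroids, 471 ± 96.3 in 96 h monolayers, 496 ± 20.1 in 48 h spheroids and 669.6 ± 33.0 in 48 h monolayers.

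**Figure D4:**
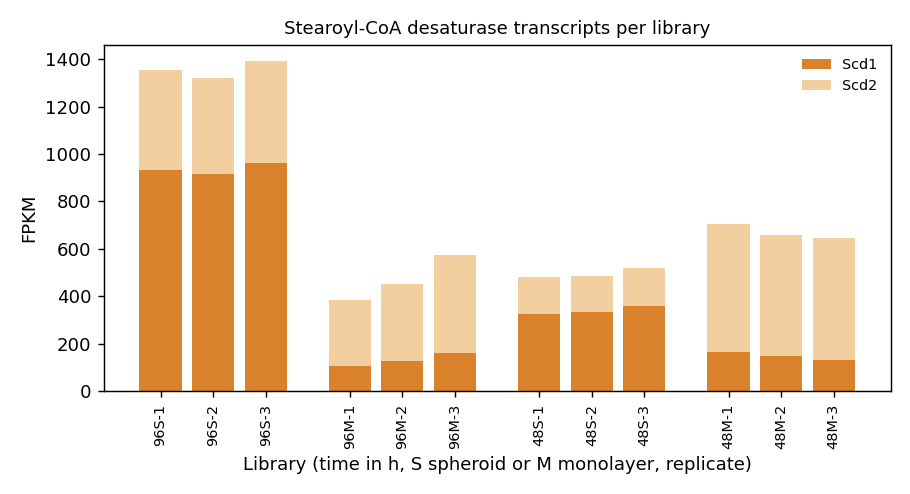
FPKM of Scd1 (dark, lower part) and Scd2 (light, upper part) in each library. The dark part is the larger one in all 6 spheroid libraries and the smaller one in all 6 monolayer libraries, and the bars of 96 h spheroids are the tallest, at 1322 to 1393 FPKM.

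Fads2, the delta-6 desaturase of polyunsaturated fatty acids, had 74.2, 68.5 and 76.8 CPM in 96 h spheroids, 64.9, 70.6 and 89.8 CPM in 96 h monolayers, 19.8, 22.9 and 23.04 CPM in 48 h spheroids and 121, 114 and 102 CPM in 48 h monolayers. The 48 h spheroids stood far below every other library, and the formats overlapped at 96 h. The fitted log2 change for spheroids was -2.36 (SE 0.113, adjusted p = 2.3e-12) at 48 h, the largest fall among the members at that time, while the change of -0.038 at 96 h did not pass (adjusted p = 0.74).

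Fads1, the delta-5 desaturase, had 91.2, 93.96 and 100.3 CPM in 96 h spheroids, 134, 135 and 165 CPM in 96 h monolayers, 44.00, 46.8 and 45.9 CPM in 48 h spheroids and 237, 226 and 227 CPM in 48 h monolayers. Spheroids were below monolayers at both times. The log2 change was -0.61 (SE 0.075, adjusted p = 8e-07) at 96 h and -2.34 (SE 0.0807, adjusted p = 2.55e-14) at 48 h, with a difference of 1.73 (SE 0.109, adjusted p = 3.31e-10). With time, Fads1 and Fads2 rose in spheroids by 1.06 and 1.74 on the log2 scale and fell in monolayers by 0.67 and 0.58.

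**Figure D5:**
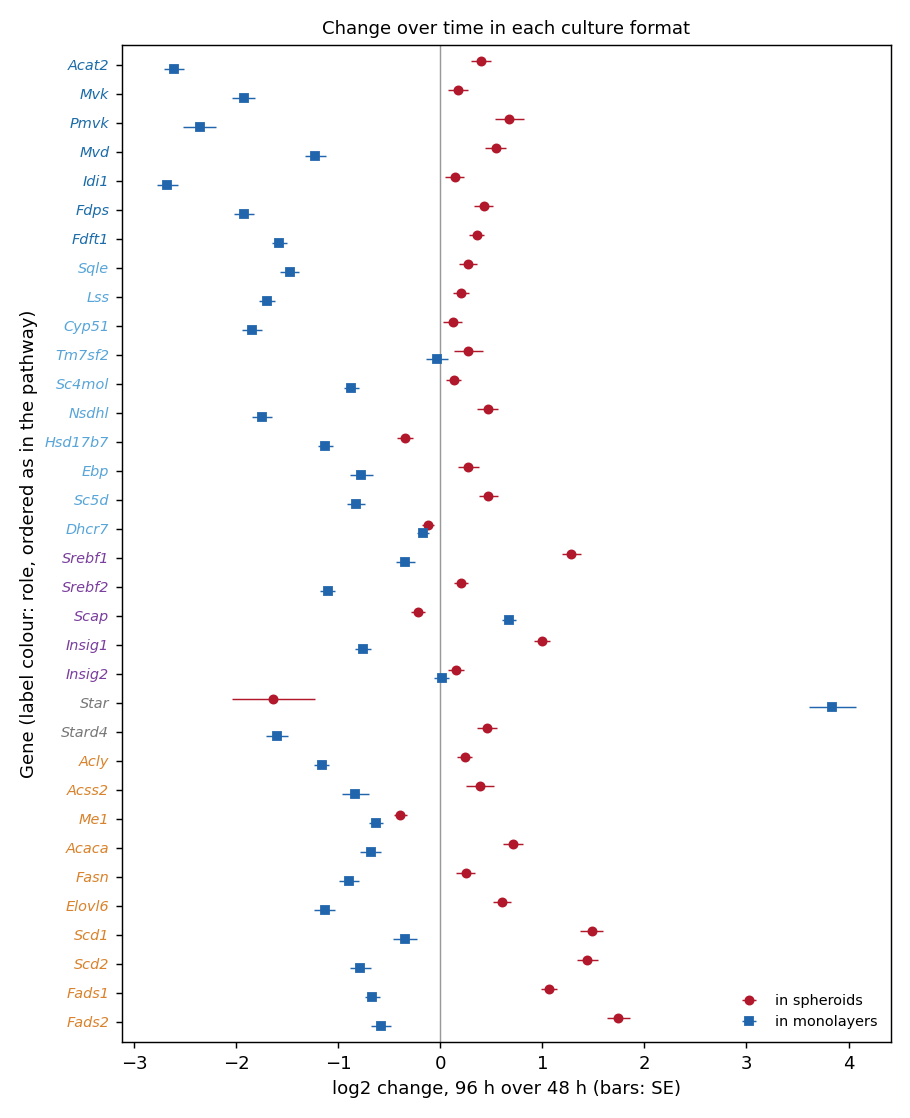
Log2 change from 48 h to 96 h in spheroids (circles) and in monolayers (squares) for each member, with bars of 1 SE and gene labels coloured by role. The squares lie left of 0 for 30 members called lower in monolayers and the circles lie right of 0 for 23 called higher in spheroids, with Star and Scap the other way round.

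Summed per length, the branches showed the same order of groups only in part. The 17 sterol enzymes added up to 817 ± 19.9 FPKM in 96 h spheroids, 480.2 ± 45.9 in 96 h monolayers, 693 ± 7.62 in 48 h spheroids and 1214 ± 75.3 in 48 h monolayers. The 10 fatty acid enzymes added up to 1710 ± 45.6, 712 ± 116, 772 ± 25.7 and 1052 ± 49.6 FPKM in the same groups (SD, n = 3 each). The sterol sum was thus highest in 48 h monolayers and the fatty acid sum in 96 h spheroids, where Scd1 and Scd2 gave 79.3 ± 0.18% of it. In the other groups they gave 63.7 to 65.8% on average.

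Of 11 genes of lipoprotein cholesterol uptake and egress, 3 were higher and 6 lower in spheroids at 96 h (37.3% and 36.5% of all genes tested), with a median log2 change of -0.36. At 48 h, 3 were higher and 4 lower (31.6% and 26.4% of all genes tested), with a median of 0.05. The counts at each time lie near the shares of all genes, more so at 48 h. The shares at each time also stand behind the counts of the other lists that follow. The difference between the format effects was positive for 1 of the 11 and negative for 8 (26.9% and 26.4% of all genes tested), with a median of -0.36. Not all of these calls held in the alternatives: that of Lrp8 (-0.30) was lost in 5 of 21. Lipa, the lysosomal lipase that frees cholesterol from its esters, was higher in spheroids at both times (0.22 at 96 h and 0.75 at 48 h), although the call at 96 h was lost with upper-quartile and total count scaling and in both limma settings (0.121 to 0.137). Scarb1, a receptor for high density lipoprotein, was higher by 0.58 at 96 h, and its change of -0.13 at 48 h did not pass.

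Lrp1, a large receptor of the LDL receptor family, had 232, 223 and 218 CPM in 96 h spheroids, 1074, 1153 and 1256 CPM in 96 h monolayers, 853, 904 and 908 CPM in 48 h spheroids and 1356, 1159 and 824 CPM in 48 h monolayers. The 96 h spheroids stood far below all other libraries, with a log2 change of -2.37 (SE 0.126, adjusted p = 5.71e-12) at 96 h and -0.33 (SE 0.119, adjusted p = 0.0258) at 48 h. The formats overlapped at 48 h, and that call was lost in 7 alternatives; the change was -0.16 without 48 h monolayer 1 (adjusted p = 0.187) and -0.51 without 48 h monolayer 3 (adjusted p = 8.71e-06). Soat1, which esterifies cholesterol for storage, had 25.1, 26.7 and 25.99 CPM in 96 h spheroids, 110.2, 113 and 113 CPM in 96 h monolayers, 67.1, 58.5 and 65.3 CPM in 48 h spheroids and 93.7, 104 and 104 CPM in 48 h monolayers. Spheroids were below monolayers at both times, with log2 changes of -2.11 (SE 0.0716, adjusted p = 9.81e-15) at 96 h and -0.66 (SE 0.0674, adjusted p = 1.16e-07) at 48 h. Npc1, which exports cholesterol from lysosomes, had 73.7, 72.2 and 69.7 CPM in 96 h spheroids, 257, 232 and 212 CPM in 96 h monolayers, 91.5, 86.5 and 90.3 CPM in 48 h spheroids and 93.3, 92.9 and 73.7 CPM in 48 h monolayers. The 96 h monolayers were above all other libraries, and its log2 change in spheroids was -1.70 (SE 0.0857, adjusted p = 2.76e-12) at 96 h, while 0.046 at 48 h did not pass (adjusted p = 0.672).

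Npc2, the partner of Npc1 in the lysosome, was lower by 0.65 at 96 h and 0.29 at 48 h, and Vldlr, the very low density lipoprotein receptor, by 0.55 and 0.69. Mylip, a ubiquitin ligase that marks LDL receptors for degradation, was lower by 0.36 at 96 h, and its change of 0.15 at 48 h did not pass. Lrp8, another receptor of the family, was higher by 0.37 at 48 h, and its 0.065 at 96 h did not pass. Stard3, a late endosomal sterol transfer protein, passed at neither time (-0.098 at 96 h and 0.15 at 48 h).

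Among 6 genes of liver X receptor signalling and sterol efflux, 1 was higher and 3 were lower in spheroids at 96 h, and 3 were higher and 1 was lower at 48 h. Abca1, the efflux pump for cholesterol, had 102, 94.8 and 94.7 CPM in 96 h spheroids, 234, 221 and 249 CPM in 96 h monolayers, 59.2, 47.8 and 57.4 CPM in 48 h spheroids and 32.4, 30.1 and 24.9 CPM in 48 h monolayers. At both times Abca1 changed opposite to all 7 enzymes before squalene and to 4 of the 10 later ones. Its log2 change in spheroids was -1.27 (SE 0.0833, adjusted p = 1.25e-10) at 96 h and 0.92 (SE 0.0982, adjusted p = 2.13e-07) at 48 h. In monolayers it rose by 3.01 on the log2 scale with time. Abcg1, a second efflux pump, was lower by 0.90 at 96 h and 0.31 at 48 h, and the call at 48 h was lost in 7 alternatives (-0.303 to -0.149). Nr1h3, the liver X receptor alpha gene, was higher by 1.31 at 48 h, and its -0.23 at 96 h did not pass.

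Of 6 genes that cleave and degrade SREBPs, 1 was higher and 2 were lower in spheroids at 96 h and none was higher and 2 were lower at 48 h. Mbtps1, the site-1 protease, was higher by 0.19 at 96 h, a call lost in 6 alternatives (0.0935 to 0.175), and its 0.045 at 48 h did not pass. Fbxw7, a ubiquitin ligase subunit that marks nuclear SREBPs for destruction, was lower by 0.88 at 96 h and 1.00 at 48 h. Ufd1l, which acts in extraction of proteins from the endoplasmic reticulum, was lower by 0.37 and 0.28, the second not called under total count scaling or in either limma setting.

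Of 5 further isoprenoid enzymes, 4 were tested and Idi2 had at most 2 counts in a library. At both times 3 were higher and 1 was lower in spheroids. Pdss1, which makes the side chain of ubiquinone, was higher by 1.59 at 96 h and 0.64 at 48 h, while Ggps1, which makes geranylgeranyl diphosphate, was lower by 0.66 and 0.42. Of 12 further lipogenic genes, 9 were higher and 1 lower in spheroids at 96 h, and 3 were higher and 5 lower at 48 h. Mid1ip1, a partner of acetyl-CoA carboxylase, had the reversal, at 1.26 at 96 h and -0.46 at 48 h. Slc25a1, the citrate carrier of mitochondria, was lower by 0.55 and 0.76. Thrsp, a relative of Mid1ip1 known from lipogenic tissues, had 61 counts over the 3 96 h spheroids and 3 counts over the 96 h monolayers, a ratio of 16.7 (95% exact interval 5.46 to 83.3), and 24 counts over the 48 h spheroids and 0 over the 48 h monolayers, at least 9.49-fold higher with the group total of the monolayers set at a floor of 3 counts. The interval and the floor cover counting error only.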

How the data were processed

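RNA was sequenced from 12 libraries in 4 groups of 3. Per the submitters' processing notes, the tools named are bcl2fastq 2.15.0, Bowtie 1.0.1 and RSEM 1.2.30, with the mouse build mm9. The authors deposited expected counts, estimated reads per gene, rounded to whole numbers, and log2 values of FPKM plus 1, from which FPKM was recovered by undoing the logarithm. Rows were matched by the symbols in the authors' annotation. Counts were fitted in R 4.3.3 with edgeR 4.0.16: filterByExpr (minimum count 10, minimum total 15), TMM scaling (factors 0.923 to 1.07), 1 quasi-likelihood model of the 4 group means over 13951 genes (common dispersion 0.00501) and 5 contrasts, each adjusted by Benjamini-Hochberg over all genes tested at 0.05. SE is the log2 change over the square root of F. CPM uses TMM-adjusted totals. limma 3.58.1, run on log2 FPKM, and DESeq2 1.42.0 served as alternatives, and the fit was tested on simulated data. Replicates of 1 group differed by 2.48 to 18.3 times the variance of sampling noise, so none was counted as a duplicate.

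The 34 members, the other gene lists and the tests were chosen with earlier results of these data known. Library values and full statistics are given for Sqle, Insig1, Srebf1, Srebf2, Fasn, Acaca, Scd1 and Scd2 and for the 3 called members of each role with the largest change at 48 h, at 96 h or between them. Of each other list, the 3 called genes with the largest change at either time are named, and the genes of the uptake list, of which 1 is counted but not reported here by itself. Promoter windows and exon overlaps come from RefSeq and from a GRCm38 annotation, another build than that of the counts. Counting intervals are exact at 95%. Files held no batch label.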

Additional observations from a re-analysis of the deposited data

Results flagged for a closer look

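For 31 of the 34 members the log2 change in spheroids differed between 96 h and 48 h by the test of that difference, which is why they are listed here; the values are the change at 96 h less that at 48 h. Among the enzymes before squalene they were 3.007 for Acat2, 2.102 for Mvk, 3.033 for Pmvk, 1.767 for Mvd, 2.816 for Idi1, 2.349 for Fdps and 1.931 for Fdft1. Among the later enzymes they were 1.743 for Sqle, 1.897 for Lss, 1.968 for Cyp51, 1.005 for Sc4mol, 2.215 for Nsdhl, 0.7792 for Hsd17b7, 1.048 for Ebp and 1.297 for Sc5d. For the regulators they were 1.626 for Srebf1, 1.306 for Srebf2, -0.895 for Scap and 1.752 for Insig1, and for the transfer proteins -5.48 for Star and 2.057 for Stard4. In the fatty acid branch they were 1.402 for Acly, 1.222 for Acss2, 0.2377 for Me1, 1.39 for Acaca, 1.143 for Fasn, 1.737 for Elovl6, 1.83 for Scd1, 2.226 for Scd2, 1.731 for Fads1 and 2.326 for Fads2. The members without such a difference were Tm7sf2, Dhcr7 and Insig2.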

How the results depend on the processing

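The counts of members called in each contrast stayed within 1.5 times of the reported ones in every alternative where they were counted. These were other scalings, filters, DESeq2, limma on log2 FPKM with a pseudocount of 1, 2 groups only, the replicate block, and each library left out. With a pseudocount of 0.1, limma was run for single member results, and no members called were counted. Of single member results, 3557 kept direction and call, 96 lost the call, 16 gained it and 37 changed sign, nearly all among changes close to 0. At 48 h Srebf1 turned to 0.08642 under total count scaling, 0.07972 with limma and 0.08201 with the smaller pseudocount, and Srebf2 and with it the median of the regulators to 0.003574 under total count scaling. At 96 h Sc5d turned to 0.008801 without a filter. For time in monolayers Tm7sf2 turned to 0.02203 with upper-quartile scaling, 0.1408 with total count scaling, and 0.1101 and 0.1168 with limma; Dhcr7, called in the fit reported, to 0.0002145 with total count scaling; and Insig2 to -0.008568 with DESeq2-type factors, -0.002136 without a filter and -0.008631 with DESeq2. The difference between format effects turned for Dhcr7 to -0.0297 with upper-quartile scaling, -0.1401 with total count scaling, and -0.1345 and -0.1379 with limma, and for Insig2 to -0.05051 with total count scaling, and -0.06257 and -0.0637 with limma. Leaving out 1 library gave ranges of -0.1115 to 0.03872 for Srebf1 and -0.1362 to 0.4565 for Star at 48 h, -0.1033 to 0.1202 for Sc5d and -0.1382 to 0.1216 for Fads2 at 96 h, and -0.144 to 0.03739 for Tm7sf2 and -0.02487 to 0.0638 for Insig2 over time in monolayers. The cause was not tested.

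Replicate numbers did not pair the libraries: deviations of the 18 pairs with equal numbers correlated from -0.11 to 0.0881. With the replicate block the member counts were 30 at 48 h, 30 at 96 h, 32 over time in monolayers, 25 over time in spheroids and 31 for the difference. Genes of the other lists were run under the same alternatives after the data were seen, and lost calls are given beside the genes named. Summing several rows of a symbol gave no value, since each member has 1 row. Depth limits Star, at 5 to 35 counts outside 96 h monolayers, and Thrsp.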

Other observations

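Of 13 genes that assemble triacylglycerol and the milk fat droplet, 12 were tested, and Fabp3 had at most 20 counts in a library. In spheroids 3 were higher and 3 lower at 96 h (37.3% and 36.5% of all genes tested), with a median log2 change of 0.14, and 8 were higher and 2 lower at 48 h (31.6% and 26.4% of all genes tested), with a median of 1.07. Only Btn1a1 had a higher signed log2 change in spheroids at 96 h than at 48 h by the test of the difference. Of the 12, 8 had a lower one (26.9% and 26.4% of all genes tested). The 3 adipocyte markers tested, Plin1, Fabp4 and Pparg, were also higher in spheroids at 48 h, with a median of 3.04, and fell with time in spheroids, with a median of -2.58; the summed level of the 8 markers was 51.4 to 55.8 CPM in 96 h spheroids, 54.9 to 80.4 in 96 h monolayers, 288 to 319 in 48 h spheroids and 34.5 to 40.3 in 48 h monolayers. Adipoq had at most 8 counts in a library. Their part in these changes was not tested. Btn1a1, butyrophilin, a protein of the milk fat globule membrane, had 93.5, 102 and 106 CPM in 96 h spheroids, 3.28, 3.26 and 3.70 CPM in 96 h monolayers, 45.6, 45.7 and 49.4 CPM in 48 h spheroids and 11.1, 9.70 and 11.6 CPM in 48 h monolayers. Its log2 change in spheroids was 4.87 (SE 0.103, adjusted p = 2.85e-17) at 96 h and 2.12 (SE 0.0891, adjusted p = 3.84e-13) at 48 h. Cd36, a fatty acid transporter, had 11.2, 12.3 and 11.8 CPM in 96 h spheroids, 1.52, 3.38 and 2.56 CPM in 96 h monolayers, 77.3, 57.9 and 75.2 CPM in 48 h spheroids and 1.47, 1.49 and 0.984 CPM in 48 h monolayers. The formats did not overlap at either time, with the 48 h spheroids highest, and its log2 change was 2.31 (SE 0.204, adjusted p = 8.94e-09) at 96 h and 5.73 (SE 0.188, adjusted p = 1.23e-14) at 48 h. Cidea, a lipid droplet protein, was higher by 2.28 in spheroids at 48 h, and its change of -0.20 at 96 h did not pass (adjusted p = 0.545).

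Plin2, which coats lipid droplets, was described here after its values were seen. It had 281, 299 and 274 CPM in 96 h spheroids, 967, 894 and 784 CPM in 96 h monolayers, 861, 901 and 917 CPM in 48 h spheroids and 448, 474 and 500.4 CPM in 48 h monolayers. The 96 h spheroids were lowest, and its log2 change in spheroids was -1.63 (SE 0.0779, adjusted p = 1.27e-12) at 96 h and 0.91 (SE 0.0764, adjusted p = 7.35e-09) at 48 h.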
